A study of Mus musculus with 12 samples.

Results

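Hoxa3, Hoxd3 and Hoxb9 are 3 genes of the mouse Hox clusters, described here by their 5-hydroxymethylcytosine (5hmC) in embryonic stem cells (ESC), heart and liver. They are 3 of the 16 Hox genes in the deposited tables, which list 13581 genes in each of 12 libraries. The 3 were chosen by their FPKM (scaled read counts) in all 12 libraries, for a signal lower in heart and liver than in ESC, both in the gene body and in a promoter window of 4000 bp. That difference between ESC and tissue is therefore given as a description and without a test. The tissue and age comparisons, which did not choose the genes, were tested.

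Hox genes encode homeodomain transcription factors that give cells their position along the body axis, and their order along each cluster follows the order of the body regions in which they act. Hoxa3 and Hoxd3 belong to paralog group 3, which patterns the hindbrain, pharyngeal arches and neck vertebrae, and Hoxb9 belongs to paralog group 9, which acts further back, in the trunk. In pluripotent cells the clusters are held silent by Polycomb complexes. 5hmC is made from 5-methylcytosine by Tet enzymes, and in many tissues the bodies of transcribed genes carry more of it than silent ones.

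ESC were the EB5 line of the 129/Ola strain, cultured with LIF, a cytokine that maintains pluripotency (labelled day 3). Whole heart and whole liver came from C57BL6/j mice at embryonic day 14 (E14), neonatal day 1 to 2 (P1) and 8 weeks (W8). There were 2 libraries of ESC and of each tissue at P1 and W8, and 1 of each tissue at E14. All samples were genomic DNA without genetic change or drug treatment named in the labels. Strain goes with the difference between ESC and tissue, and the ESC are 1 line. Sequencing was paired-end at 75 bp for ESC and P1 and single-end at 50 bp for E14 and W8, so age from P1 to W8 cannot be told apart from read format. The labels do not say whether replicates were separate animals or cultures, so p-values measure the spread between these libraries, which may be technical. In whole tissue, fewer cells of a type that carries 5hmC at a gene and less 5hmC per cell cannot be told apart.

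Values are FPKM, reads scaled to region length and library depth, as deposited by the authors. Because each FPKM is a whole number of steps, the reads behind it could be recovered, and they are given in parentheses. Reads over gene bodies came to between 142778 in W8 heart replicate 2 and 5.76e+06 in E14 liver. The median gene body held 5.04 reads in W8 heart replicate 2 and 19 to 207 reads in the other 11 libraries. W8 heart replicate 2 therefore resolved single genes least. Marker lists for heart muscle and hepatocytes differed between the tissues in the direction of the labels, with 5 of 8 heart muscle bodies higher in P1 heart than in P1 liver and 5 of 8 hepatocyte bodies lower, where limma called 2.28% of all bodies in either direction. The 4 calls of lowest adjusted p in each list held in 2 of 10 fits with 1 replicate left out, those without a W8 heart library. The pluripotent cell list summed to 7.40 to 7.74 FPKM in ESC and to 2.44 to 7.10 FPKM in the tissues. Of its 7 measured genes limma called 0 lower in P1 heart than in ESC and 1 in P1 liver. Of all bodies it called 7.1% and 5.05% lower there, so this list does not mark the ESC libraries clearly. Nanog, a defining marker on that list, was not among the genes of the tables.

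In mm9, the gene body of Hoxa3 (NM_010452, HoxA cluster, chromosome 6) runs from 52113358 to 52161338 and holds 47981 bp of exons and introns. Its promoter window runs from 52161339 to 52165338, and 849 bp of it overlap the body of Hoxa7. The gene body of Hoxd3 (NM_010468, HoxD cluster, chromosome 2) runs from 74551986 to 74586331, or 34346 bp, with a promoter window from 74547986 to 74551985. The gene body of Hoxb9 (NM_008270, HoxB cluster, chromosome 11) runs from 96134771 to 96137909 and is only 3139 bp long, with a promoter window from 96130771 to 96134770. The tables give no chromosome, which was taken from RefSeq by gene name. The Hoxb9 body is short enough that its FPKM rests on 0 to 23 reads, whereas the Hoxa3 body held 6 to 274.

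5hmC can form only at methylated cytosines, which in mammals lie mostly in CpG pairs, so the CpG pairs near the start of the genes are shown. The RefSeq sequences around the starts of Hoxa3 (chr6:52213018-52213317, minus strand) and Hoxd3 (chr2:74711743-74712042, plus strand) are given 5′ to 3′ in GRCm38.p6, a later build than the mm9 of the tables, with each CpG in capitals.
Hoxa3: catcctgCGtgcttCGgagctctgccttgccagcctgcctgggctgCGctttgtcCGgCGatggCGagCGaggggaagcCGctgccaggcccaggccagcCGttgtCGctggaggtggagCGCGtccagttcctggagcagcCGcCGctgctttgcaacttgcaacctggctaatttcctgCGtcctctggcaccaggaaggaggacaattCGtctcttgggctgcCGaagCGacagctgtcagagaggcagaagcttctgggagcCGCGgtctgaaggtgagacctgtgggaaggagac
Hoxd3: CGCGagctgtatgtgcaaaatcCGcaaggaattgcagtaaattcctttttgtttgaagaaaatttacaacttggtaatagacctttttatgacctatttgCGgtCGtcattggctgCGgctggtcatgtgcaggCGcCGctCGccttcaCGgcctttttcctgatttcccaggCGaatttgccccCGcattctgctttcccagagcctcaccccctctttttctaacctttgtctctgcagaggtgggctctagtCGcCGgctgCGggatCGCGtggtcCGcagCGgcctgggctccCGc
Each of these 300 bp regions holds 20 CpG pairs, against a median of 7 over 32851 RefSeq promoters of the same length, of which 26.5% held as many (CG, searched on 1 strand because it reads the same on both). The GC content was 64% at Hoxa3 and 54% at Hoxd3. Both starts thus hold more CpG pairs than the median promoter, and whether these are methylated was not measured.

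The Hoxa3 gene body carried 1.35 (131 reads) and 1.44 FPKM (274 reads) in the ESC libraries. In heart it was 0.260 FPKM (99 reads) at E14, 0.164 (10 reads) and 0.115 (6 reads) at P1, and 0.158 (55 reads) and 0.380 (6 reads) at W8. In liver it was 0.332 FPKM (247 reads) at E14, 0.612 (28 reads) and 0.468 (80 reads) at P1, and 0.232 (99 reads) and 0.200 (78 reads) at W8. Every tissue library lay below both ESC libraries, and the lowest ESC value was 2.21 times the highest tissue value, in P1 liver. Among all gene bodies of its library, Hoxa3 stood at percentiles 71.0 and 79.1 in ESC and at percentiles 4.52 to 31.6 in the tissues. Group means fell in the order ESC (1.40 ± 0.0616 FPKM, SD, n = 2), P1 liver (0.540 ± 0.101, n = 2), E14 liver, W8 heart, E14 heart, W8 liver (0.216 ± 0.0226, n = 2) and P1 heart (0.139 ± 0.0342, n = 2). Below P1 liver the neighbours in this order were close, and the W8 heart libraries alone (0.269 ± 0.157, SD, n = 2) spanned the values of E14 heart, E14 liver and W8 liver.

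**Figure D1:**
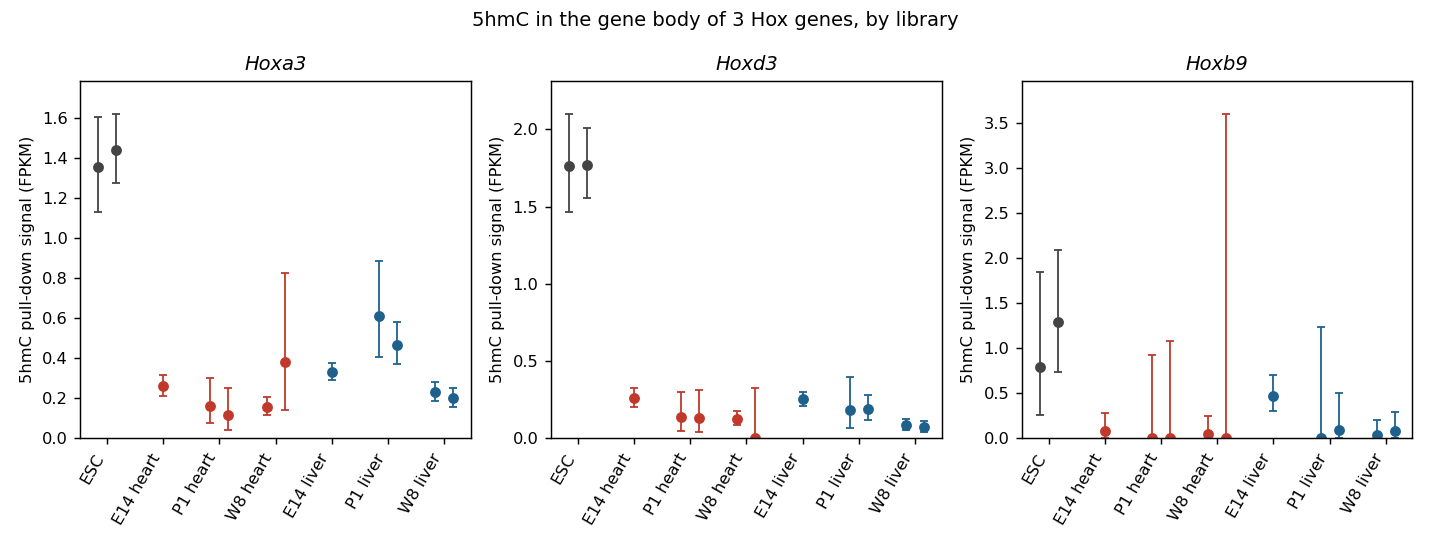
Gene body FPKM of Hoxa3, Hoxd3 and Hoxb9 in each of 12 libraries, with 1 point per library and bars for the exact 95% Poisson interval of its reads (counting error only; the vertical scales differ between panels). ESC (grey) stand above all heart (red) and liver (blue) points in each panel, and for Hoxb9 the bars of libraries with 0 reads reach into the ESC range.

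The Hoxd3 gene body carried 1.76 (122 reads) and 1.77 FPKM (241 reads) in ESC, the highest level per length of the 3 genes. In heart it was 0.261 FPKM (71 reads) at E14, 0.137 (6 reads) and 0.134 (5 reads) at P1, and 0.124 (31 reads) and 0 (0 reads) at W8. In liver it was 0.253 FPKM (135 reads) at E14, 0.183 (6 reads) and 0.188 (23 reads) at P1, and 0.0852 (26 reads) and 0.0717 (20 reads) at W8. The groups did not overlap, and the lowest ESC value was 6.74 times the highest tissue value, in E14 heart. In W8 heart replicate 2, 3 reads would have given 0.268 FPKM, so its 0 does not set it apart from the other tissues. Hoxd3 ranked at percentiles 84.9 and 89.0 of gene bodies in ESC and 2.13 to 12.8 in the tissues. Both E14 values stood highest among the tissues and the W8 liver values, at 0.0784 ± 0.00959 FPKM (SD, n = 2), stood lowest apart from the W8 heart library at 0. P1 heart (0.136 ± 0.00207 FPKM, SD, n = 2) and P1 liver (0.186 ± 0.00352, n = 2) lay between them.

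Hoxd4, the next gene of the HoxD cluster and a group 4 paralog, lies wholly inside the Hoxd3 body as the tables define it. The body of Hoxd4 (5183 bp) and its promoter window (4000 bp) make up 26.7% of the Hoxd3 body and held 33.6% and 34.4% of its reads in the ESC libraries. The level was highest in that shared stretch in ESC, at 2.23 and 2.52 FPKM in the Hoxd4 promoter window and 2.20 and 2.09 FPKM in the Hoxd4 body. The remaining 25163 bp of Hoxd3 carried 1.60 and 1.58 FPKM in ESC (81 and 158 reads). In heart this remainder was at 0.231 FPKM at E14, 0.125 and 0.110 at P1, and 0.109 and 0 at W8. In liver it was at 0.210 FPKM at E14, 0 and 0.167 at P1, and 0.0895 and 0.0833 at W8. The gap between ESC and tissue thus held in the part of Hoxd3 that Hoxd4 does not share, and in the shared part. All 6 reads of Hoxd3 in P1 liver replicate 1 came from the Hoxd4 windows, which matters for the tissue comparison below. Hoxa3 also spans other genes, Hoxa4, Hoxa5 and Hoxa6 in RefSeq, but these have no rows of their own in the tables and could not be set apart.

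**Figure D2:**
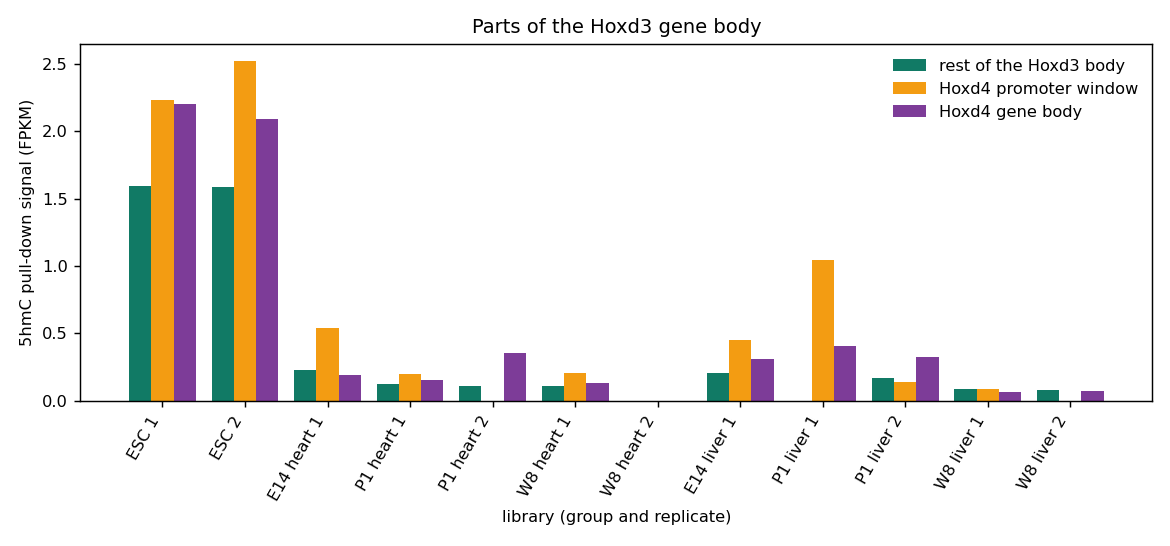
FPKM of the Hoxd4 promoter window, the Hoxd4 gene body and the rest of the Hoxd3 gene body in each library (bars start at 0; a missing bar is 0 reads). In both ESC libraries all parts stand at 1.58 FPKM or above, and the tissue bar that comes nearest is the Hoxd4 promoter window in P1 liver replicate 1, at 1.05 FPKM from 4 reads.

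The Hoxb9 gene body carried 0.790 (5 reads) and 1.29 FPKM (16 reads) in ESC. In heart it was 0.0792 FPKM (2 reads) at E14, 0 in both P1 libraries, and 0.0445 (1 read) and 0 at W8. In liver it was 0.471 FPKM (23 reads) at E14, 0 and 0.0895 (1 read) at P1, and 0.0364 (1 read) and 0.0797 (2 reads) at W8. ESC and tissue did not overlap here either, but the 4 libraries at 0 were shallow, and 3 reads in the library would have read as 0.750 and 0.881 FPKM in P1 heart, 1.00 in P1 liver replicate 1 and 2.93 in W8 heart replicate 2. By that 3-read limit, only P1 heart replicate 1 among these 4 could show a level as high as the lower ESC library. Its exact 95% interval still reached 0.923 FPKM, above that level, so none of the 4 is set apart from it. The firmest low values came from the deep libraries: E14 heart, W8 heart replicate 1 and both W8 livers held 1 or 2 reads each. E14 liver stood apart among the tissues, at percentile 40.7 of its library, where the other 9 tissue libraries ranked at 4.97 or lower and ESC at 42.4 and 72.7.

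To set the genes side by side, reads were pooled within each group and divided between ESC and tissue, with an exact 95% interval for counting error only. The 6 tissue ratios share the same ESC libraries. Because these differences chose the genes, the intervals show counting error and are no test. For Hoxa3 bodies ESC was 2.83 times P1 liver (interval 2.28 to 3.53), 4.26 times E14 liver, 5.42 times E14 heart, 6.50 times W8 liver, 8.42 times W8 heart and 9.98 times P1 heart (6.07 to 17.6). For Hoxd3 bodies the ratios ran from 6.78 against E14 heart (5.24 to 8.87) and 6.98 against E14 liver to 14.8 against W8 heart and 22.4 against W8 liver (16.5 to 31.2). The ratio against P1 liver was 9.45 for Hoxd3 (6.47 to 14.3). For Hoxb9 bodies ESC was 2.37 times E14 liver (1.25 to 4.48), 13.9 times E14 heart (3.40 to 122) and 19.9 times W8 liver (5.94 to 104). Against P1 heart, with 0 reads, ESC was 2.76-fold higher with the group set to 3 reads, and the exact interval began at 2.05. The ratios of Hoxb9 to P1 liver (15.8, interval 2.55 to 655) and to W8 heart (26.6, interval 4.28 to 1101) rest on 1 tissue read each.

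**Figure D3:**
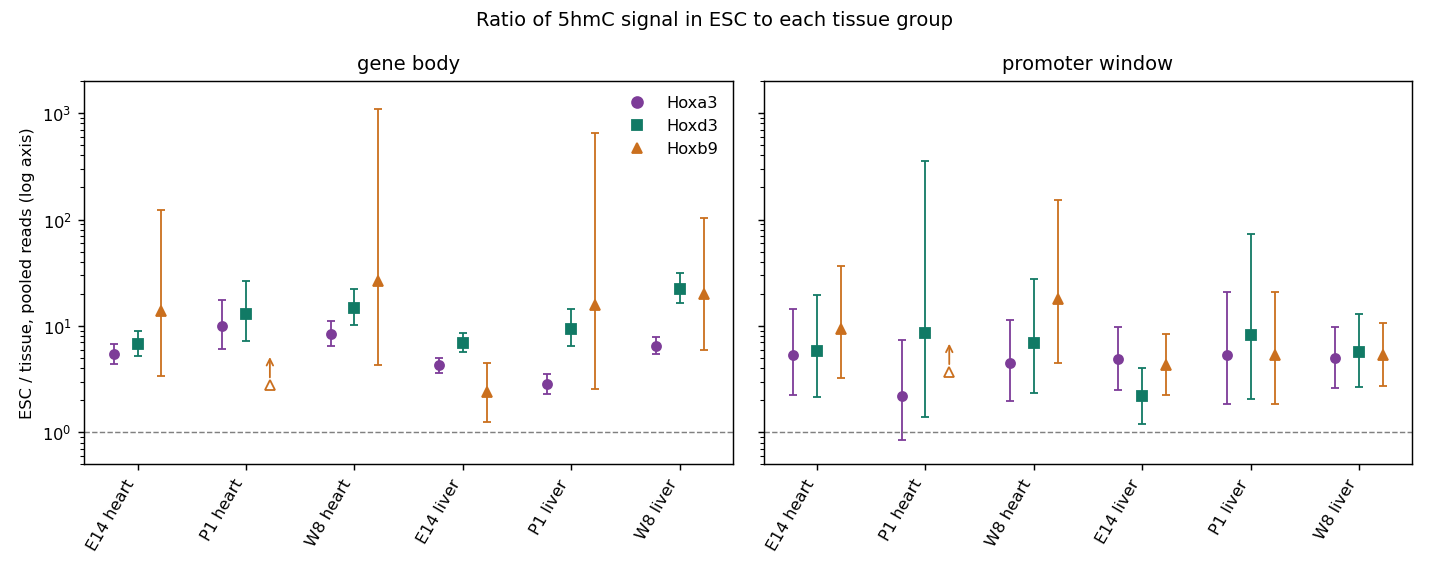
Ratio of pooled reads in ESC to those in each tissue group, scaled for depth, on a log axis for gene bodies (left) and promoter windows (right); bars are exact 95% counting intervals, open symbols with arrows are lower bounds for groups with 0 reads, and the dashed line marks equal signal. All ratios lie above 1, with narrow bars for Hoxa3 and Hoxd3 bodies and wide ones for Hoxb9 and for the promoter windows.

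Promoter windows, which were also used to choose the genes, are described in the same way and held fewer reads. Hoxa3 carried 1.36 (11 reads) and 1.07 FPKM (17 reads) in ESC, and 0 to 0.589 FPKM (0 to 15 reads) in the 10 tissue libraries. Hoxd3 carried 0.868 (7 reads) and 0.946 FPKM (15 reads) in ESC, and 0 to 0.418 FPKM (0 to 26 reads) in the tissues, with the highest in E14 liver. Hoxb9 carried 1.36 (11 reads) and 1.07 FPKM (17 reads) in ESC, the same read numbers as Hoxa3 although the windows are on different chromosomes, and 0 to 0.309 FPKM (0 to 17 reads) in the tissues. Each of the 3 windows lay lower in every tissue library than in both ESC libraries. W8 heart replicate 2 had 0 reads in all 3 windows, where 3 reads would have given 2.30 FPKM, so it carries no information on promoters. ESC was 2.21 times P1 heart at the Hoxa3 promoter, with a wide counting interval of 0.842 to 7.32 that includes 1. At the Hoxd3 promoter the ratio was smallest against E14 liver, at 2.20 (1.19 to 4.03). At the Hoxb9 promoter it was 4.28 against E14 liver (2.26 to 8.33) and 5.30 against W8 liver (2.74 to 10.7). In ESC the promoter level was 0.872 times the body level for Hoxa3, 0.514 times for Hoxd3 and 1.17 times for Hoxb9, per length.

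**Figure D4:**
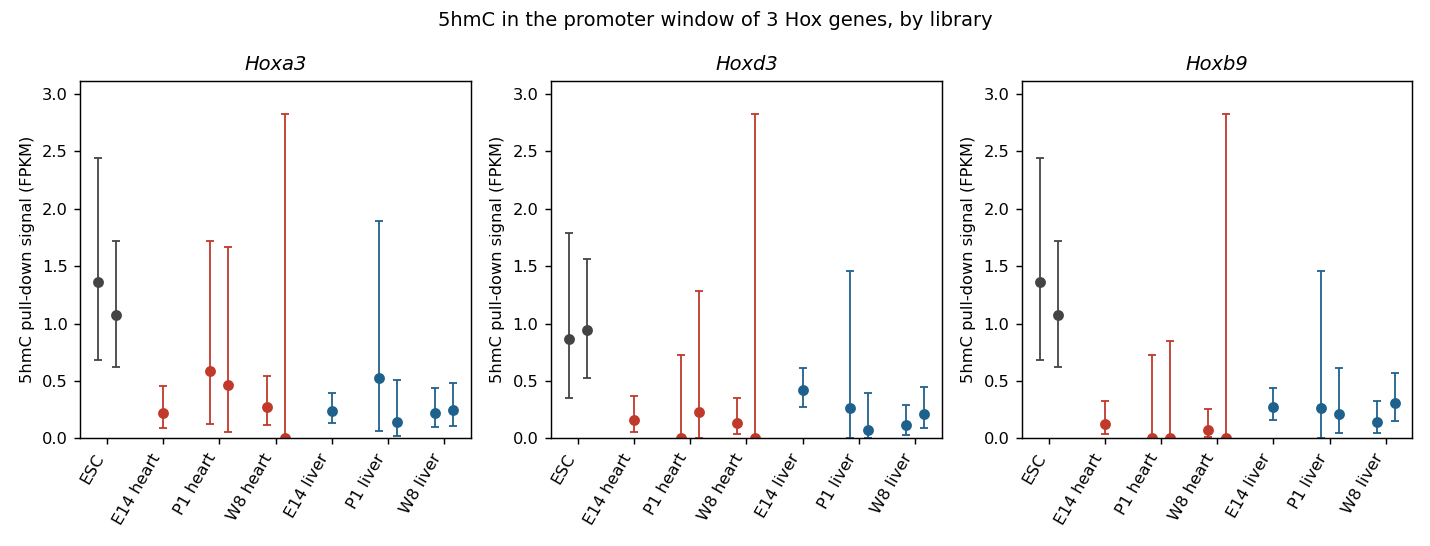
Promoter window FPKM of Hoxa3, Hoxd3 and Hoxb9 in each of 12 libraries, drawn as for gene bodies, with exact 95% Poisson bars. The ESC points lie above every tissue point, from 1.07 against at most 0.589 FPKM for Hoxa3, with wide bars because a window holds at most 26 reads.

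On the scale of log2(FPKM + 0.0746), where low values are compressed, the Hoxa3, Hoxd3 and Hoxb9 bodies were lower in P1 heart than in ESC by a log2 difference of -2.79, -3.13 and -3.86, and in P1 liver by -1.27, -2.82 and -3.29. The value for Hoxb9 in P1 heart, a group with 0 reads, depends on the constant added and is no bound. Both contrasts use the same ESC libraries and the same read format. All gene bodies had a median of -0.13 in P1 heart and 0.10 in P1 liver, and limma called 7.1% and 5.05% of them lower than in ESC. Because these contrasts chose the genes, nothing is read from that share. In both windows the 3 genes were also among those with all 10 tissue libraries below both ESC libraries, a pattern met by 16.8% of all gene bodies and 10.4% of promoter windows.

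Within the tissues, heart and liver were compared at P1 and W8, and ages were compared within each tissue, by limma on all gene bodies with Benjamini-Hochberg adjustment. Of the 3 genes, 0 passed the threshold of 0.05 between P1 heart and P1 liver, where 2.28% of gene bodies did. Hoxa3 came nearest, with both liver libraries above both heart libraries and a log2 difference, heart minus liver, of -1.52 ± 0.32 (SE; limma, adjusted p = 0.0624). By pooled reads P1 liver was 3.53 times P1 heart at Hoxa3, with a counting interval of 2.08 to 6.39. The call depends on libraries outside the comparison, which enter through the shared estimate of spread: limma gave an adjusted p of 0.00712 without W8 heart replicate 1 and likewise without W8 heart replicate 2. Hoxd3 differed by -0.31 ± 0.40 (limma, adjusted p = 0.668) and Hoxb9 by -0.57 ± 0.43 (adjusted p = 0.446). The Hoxd3 difference turned to 0.51 when the Hoxd4 windows were left out. The blood and erythroid marker list summed to 10.1 to 11.8 FPKM in P1 liver and 6.45 to 8.14 in P1 heart. Of its 8 genes 0 were at 0, and limma called 0 of them between these groups. In ESC the list summed to 9.30 to 11.1 FPKM, so here and below the sum alone does not measure blood cell content. The part of these markers in the Hoxa3 values was not tested.

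At W8, where 30.8% of gene bodies differed between heart and liver, 0 of the 3 genes passed. The log2 differences, heart minus liver, were 0.16 ± 0.32 for Hoxa3, -0.33 ± 0.40 for Hoxd3 and -0.47 ± 0.43 for Hoxb9, with limma adjusted p of 0.721, 0.555 and 0.427. The W8 heart libraries were at 0.158 and 0.380 FPKM at Hoxa3, on either side of both W8 liver libraries, and the direction turned for Hoxa3 (-0.32) and Hoxd3 (0.38) without W8 heart replicate 2. Without W8 heart replicate 1 Hoxd3 passed at -1.02 (limma, adjusted p = 0.00322), a value that rests on the 0 reads of the shallow library. The change of the tissue difference from P1 to W8 was 1.69 ± 0.46 for Hoxa3 (limma, adjusted p = 0.140), -0.02 ± 0.57 for Hoxd3 and 0.10 ± 0.61 for Hoxb9, and 0.0148% of gene bodies passed. Without W8 heart replicate 1 the change passed for Hoxa3 at 2.16 (limma, adjusted p = 0.00491) and for Hoxd3 at -0.71 (adjusted p = 0.0378).

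Between W8 liver and P1 liver, 0 of the 3 genes passed and 9.84% of gene bodies did. Hoxa3 was at 0.232 and 0.200 FPKM in W8 liver, below both P1 liver libraries, a log2 difference of -1.07 ± 0.32 (limma, adjusted p = 0.0838). Hoxd3 was also below both P1 liver libraries, at -0.77 ± 0.40 (limma, adjusted p = 0.288), and Hoxb9 differed by 0.24 ± 0.43 (adjusted p = 0.791). Hoxa3 and Hoxd3 passed with only those groups fitted (limma, adjusted p = 0.0256 and 0.0294), where 3446 of 13484 gene bodies did. Without W8 heart replicate 1 their differences were -1.07 and -0.76, and without replicate 2 likewise -1.07 and -0.76. For Hoxd3 the difference was 0.26 once the Hoxd4 windows were left out, so its direction rests on the reads of that stretch. Blood and erythroid markers fell in the same comparison, 3 of 8 by limma (Runx1, Ikzf1 and Ptprc), and summed to 5.06 to 5.75 FPKM in W8 liver. Fibroblast markers fell for 3 of 8 and endothelial markers for 4 of 7. The calls for all 10 of these markers were lost without either W8 liver replicate or without P1 liver replicate 1, and Emcn and Kdr held in 2 of 10 fits with 1 replicate left out. Their part in the Hox values was not tested.

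Between W8 heart and P1 heart, 0 of the 3 genes passed and 0.0148% of gene bodies did. The log2 differences were 0.61 ± 0.32 for Hoxa3, -0.79 ± 0.40 for Hoxd3 and 0.34 ± 0.43 for Hoxb9. Without W8 heart replicate 1, which leaves the library with 6 reads at Hoxa3 and 0 at Hoxd3, these 2 genes passed at 1.09 and -1.47 (limma, adjusted p = 0.0119 and 0.00132).

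E14 and W8 libraries share a read format, and the comparison of W8 with E14 gave the only call among the 3 genes. Hoxb9 fell in liver from 0.471 FPKM (23 reads) at E14 to 0.0364 and 0.0797 FPKM (3 reads in all) at W8, a log2 difference of -2.06 ± 0.53 (limma, adjusted p = 0.0370). Of all gene bodies 20.7% passed, 2.83% lower and the rest higher, and their median difference was 0.47, so Hoxb9 moved against the general direction. By pooled reads E14 liver was 8.39 times W8 liver, with a counting interval of 2.53 to 43.6. E14 liver has 1 library, assumed to vary like the others, and the call was lost without either ESC library, either P1 heart library or either W8 liver library (limma, adjusted p from 0.0568 without P1 heart replicate 2 to 0.154 without W8 liver replicate 1). The direction held in each of these fits. Hoxd3 and Hoxa3 were lower at W8 as well, by -1.10 ± 0.49 (adjusted p = 0.151) and -0.49 ± 0.40 (adjusted p = 0.409). The Hoxd3 difference was -1.09 without W8 heart replicate 1 and -1.10 without replicate 2. With only the liver groups fitted all 3 genes passed, but so did 8776 of 13484 gene bodies. Passing in that fit therefore does not set the 3 genes apart. Blood and erythroid markers summed to 7.30 FPKM in E14 liver and their part in these values was not tested.

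In heart, W8 against E14 gave 0 calls for the 3 genes and 0% over all gene bodies by limma, with 1638 genes at an unadjusted p under 0.05. Hoxd3 had the widest difference, -1.46 ± 0.49 (limma, adjusted p = 0.399), and passed without W8 heart replicate 1 at -2.14 (adjusted p = 0.00145), again from the library with 0 reads. Hoxb9 differed by -0.71 ± 0.53 and Hoxa3 by -0.04 ± 0.40.

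E14 heart and E14 liver, with 1 library each, were compared as values only. The Hoxb9 body held 23 reads in liver and 2 in heart, a ratio of 5.87 after scaling (counting interval 1.45 to 51.4). Hoxa3 was 1.27 times higher in liver (1.00 to 1.63) and Hoxd3 was level at 0.971 (0.723 to 1.31). At the promoters the ratio was 2.65 for Hoxd3 (1.00 to 8.85), 2.17 for Hoxb9 (0.708 to 8.86) and 1.09 for Hoxa3 (0.420 to 3.17). At E14 the liver signal thus stood above the heart signal beyond counting error at the Hoxb9 body, and by a narrow margin at the Hoxa3 body and the Hoxd3 promoter. The blood and erythroid markers summed to 7.30 FPKM in E14 liver and 4.96 in E14 heart, and their part was not tested.

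In promoter windows 0 of the 3 genes passed in any of the 4 tissue comparisons made at P1 and W8, and 0.00741% of windows did in each. The widest difference was at Hoxb9 between P1 heart and P1 liver, -2.09 ± 0.88 (limma, adjusted p = 0.495), from 0 reads against 4. Without W8 heart replicate 1, Hoxa3 passed as lower in W8 heart than in P1 heart at -2.98 (limma, adjusted p = 0.0134), on the 0 reads of W8 heart replicate 2.

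The other 13 measured Hox genes give the setting. In gene bodies, 5 of 13 were lower in P1 heart than in ESC by limma and 6 of 13 in P1 liver, with 0 higher in either, against the 7.1% and 5.05% of all genes given above. Their median log2 differences were -2.57 and -2.34. By pooled reads, with groups at 0 reads set to 3 reads over the group, the medians were -2.06 over the 12 genes with a ratio in P1 heart and -2.18 over 13 in P1 liver. The lowest adjusted p in P1 heart belonged to Hoxa11 (0 reads there, ESC 3.02-fold higher with the group set to 3 reads, adjusted p = 0.0128), Hoxb3 (-2.45 ± 0.37, 0.0160), Hoxd4 (-2.83 ± 0.49, 0.0197) and Hoxc13 (-2.90 ± 0.53, 0.0218). In P1 liver they belonged to Hoxc13 (-3.37 ± 0.53, 0.0123), Hoxa11 (-3.58 ± 0.61, 0.0147), Hoxd4 (-2.34 ± 0.49, 0.0250) and Hoxc10 (0 reads there, ESC 2.52-fold higher with the group set to 3 reads, 0.0318). The filter on low values used the mean over all libraries, which Hoxc13 and Hoxc10 reached only through ESC. Without that filter 5 of 13 again passed in P1 heart and 6 of 13 in P1 liver. Hoxd4 shares its reads with Hoxd3 and is no independent case. Without either ESC replicate, 0 of the Hox genes passed in P1 heart or P1 liver. In P1 heart 3 and 1 passed without P1 heart replicate 1 and 2, and 1 without either W8 liver replicate. In P1 liver 0 and 2 passed without P1 liver replicate 1 and 2, and 2 without either W8 liver replicate. With W8 heart replicate 1 or 2 left out, more passed in each tissue than in the main fit, and the share of all gene bodies in those fits is not given. In promoter windows 0 of 13 passed in either tissue, where 0.0741% and 0.163% of all windows did, although 13 of 13 had differences below 0. Of the 13, 10 bodies and 10 promoter windows had all tissue libraries below both ESC libraries, so the 3 genes share this pattern with most of the measured Hox genes. By percentile within each library 8 bodies and 11 windows did, against 10.7% and 10.4% of all genes.

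**Figure D5:**
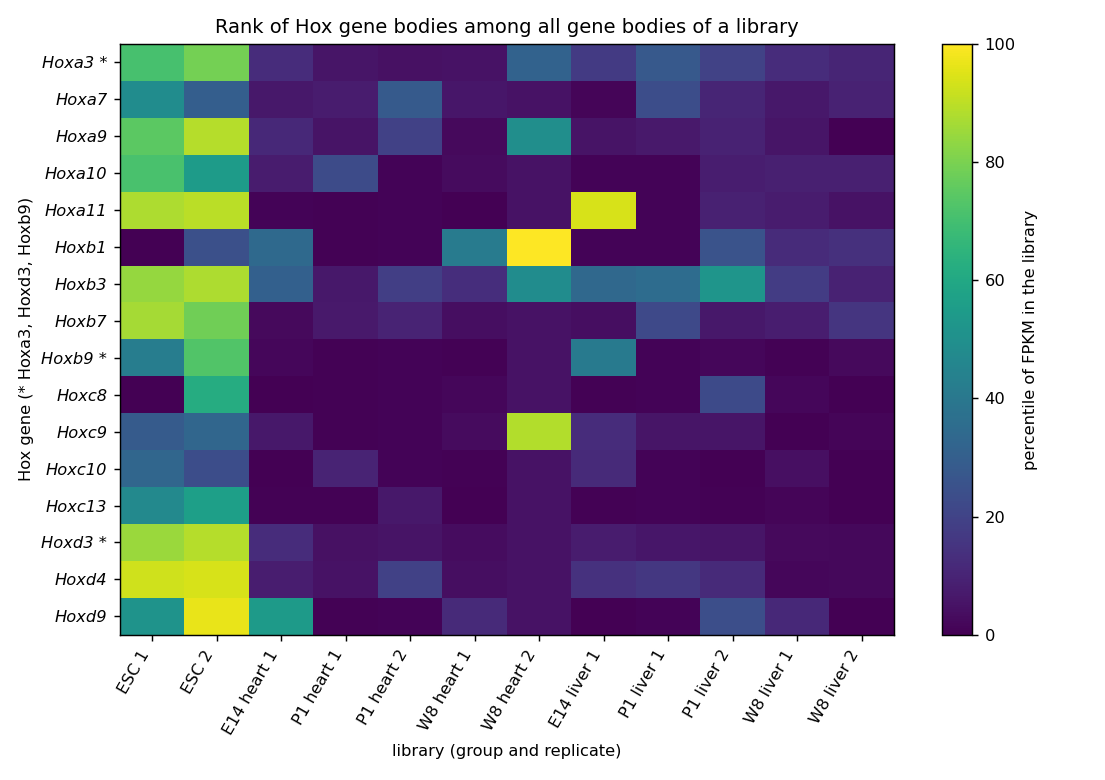
Percentile of the gene body FPKM of 16 Hox genes (rows, asterisks on Hoxa3, Hoxd3 and Hoxb9) among all gene bodies of each of 12 libraries (columns); 0 is the lowest and 100 the highest. The ESC columns are bright for most genes and the tissue columns dark, with Hoxa11 in E14 liver at percentile 93.9 and Hoxb9 there at 40.7, while the bright cells of Hoxc9 and Hoxb1 in W8 heart replicate 2 come from a library with a median of 5.04 reads per body.

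Among the paralogs, Hoxb3, the other measured group 3 gene, was at 1.74 and 1.71 FPKM in ESC (75 and 145 reads). In heart it was at 0.460 FPKM at E14, 0.184 and 0.345 at P1, and 0.277 and 0.578 at W8. In liver it was at 0.431 FPKM at E14, 0.736 and 0.947 at P1, and 0.300 and 0.184 at W8. As at Hoxa3, P1 liver was the highest tissue group, and both P1 liver libraries stood above both P1 heart libraries (-1.47 ± 0.37, limma, adjusted p = 0.0797). Hoxb3 fell from P1 to W8 in liver (-1.55 ± 0.37, limma, adjusted p = 0.0452), the only call of the 13 gene bodies between tissues or ages. That call held in 2 of 10 fits with 1 replicate left out, those without a W8 heart library, and its adjusted p reached 0.271 without W8 liver replicate 2. With the replicate block or with median centring, 0 of the 13 passed there. Hoxd3, of the same paralog group, was at 0.183 and 0.188 FPKM in P1 liver, above both P1 heart and both W8 liver libraries. Its highest tissue values were at E14, however, at 0.261 FPKM in heart and 0.253 in liver. All 6 Hoxd3 reads of P1 liver replicate 1 lay in the Hoxd4 windows. Without those windows the direction turned, to 0.51 for P1 heart against P1 liver and 0.26 for W8 against P1 liver.

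The group 9 paralogs of Hoxb9 differed more. Hoxa9 was at 1.45 and 1.77 FPKM in ESC and 0.0237 to 0.590 in the tissues, a gap without overlap. Hoxc9 was at 0.572 and 0.624 FPKM in ESC and overlapped them only through W8 heart replicate 2, at 1.49 FPKM from 3 reads. Hoxd9 rested on 1 and 5 reads in ESC and on at most 3 in the tissues. In E14 liver, where Hoxb9 stood at 0.471 FPKM, Hoxa9 was at 0.226 FPKM (18 reads), Hoxc9 at 0.297 (28 reads) and Hoxd9 at 0 (0 reads). Hoxa11, from another paralog group and the Hox gene most like Hoxb9 across libraries, was at 1.07 FPKM (35 reads) in E14 liver against 0.0590 (1 read) in E14 heart, and at 1.88 and 1.80 FPKM in ESC. It was at 0.160 and 0.116 FPKM in W8 liver, a difference from E14 liver of -2.44 ± 0.74 (limma, adjusted p = 0.0572).

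Across the 12 libraries the gene bodies most like each gene were ranked by Pearson correlation of log2 values, as a description over libraries that share read formats and include the ESC libraries by which the 3 genes were chosen. For Hoxa3 these were St6galnac1 (r = 0.970), Fbxo15 (0.961) and Tada3 (0.953), and among Hox genes Hoxb3 (0.937). For Hoxd3 they were Emx2 (0.974), Islr2 (0.974) and 2010107G23Rik (0.971), and among Hox genes its overlapping neighbour Hoxd4 (0.960). For Hoxb9 they were Fut9 (0.943), Rgs20 (0.930) and Foxb1 (0.928), and among Hox genes Hoxa11 (0.961). Emx2 and Foxb1 encode further developmental transcription factors of the homeodomain and forkhead families. Emx2 was at 1.46 and 1.70 FPKM in ESC and at most 0.297 in the tissues, with a tissue median of 0.163.

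In lists of genes that act with or upstream of Hox proteins, gene body calls against ESC went both ways. Of the 9 TALE homeodomain cofactors, which bind DNA together with Hox proteins, those that rose from ESC to P1 heart included Meis1 (by 0.87 on the log2 scale), Pbx3 (by 0.71) and Meis2 (by 0.70), and 0 fell. In P1 liver 2 rose (Meis1 by 0.62 and Pbx3 by 0.70). Limma called 12.7% and 15.4% of all gene bodies in either direction in these comparisons, and 7.1% and 5.05% as lower than ESC. Among 13 measured upstream regulators, Cdx2, a caudal-type homeodomain factor that activates Hox genes, fell from a mean of 1.96 FPKM in ESC to 0.392 in P1 liver (-2.14 ± 0.30, limma, adjusted p = 0.00959) and to 0 in both P1 heart libraries (adjusted p = 0.00621). At 0 FPKM, the P1 heart call for Cdx2 depends on the constant added, and no read limit was worked out for this gene. Rxra rose in both tissues (0.93 and 0.99) and Rarb in P1 heart (1.13), both nuclear receptors of the retinoic acid pathway. Of 26 measured Polycomb genes, Suz12 fell in P1 heart (-0.73) and Phc1 in P1 liver (-0.75), while Rybp rose in P1 liver (1.16). Of 9 measured genes for 5hmC and DNA methylation, Uhrf1 (-1.37) and Dnmt1 (-1.24), which maintain methylation through replication, fell in P1 heart and 0 passed in P1 liver. Each of these named calls was lost when either ESC replicate was left out, where the highest adjusted p in such a fit ran from 0.0720 for Rybp to 0.237 for Meis2. The medians of these 4 lists ran from -0.65 to -0.11 in P1 heart and from -0.20 to 0.26 in P1 liver.

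Between P1 heart and P1 liver the same lists gave 1 call each among upstream regulators and 5hmC genes, Cdx2 (at 0 in heart) and Uhrf1 (-1.26), both lower in heart, and 0 for cofactors and Polycomb genes. The Cdx2 call sets 0 FPKM in P1 heart against a mean of 0.392 in P1 liver, and no read limit was worked out for it. The calls for Cdx2 and Uhrf1 each held in 2 of 10 fits with 1 replicate left out. Between W8 liver and E14 liver, where Hoxb9 fell, 7 of 26 Polycomb genes and 3 of 9 genes for 5hmC and DNA methylation rose. Tet2 (0.98) and Dnmt3a (1.23) were among them, and Meis3 fell (-1.26). Limma called 20.7% of all bodies there, 2.83% lower and the rest higher, and the median difference of all bodies was 0.47. The rises thus go with a general rise. Without either W8 liver replicate the calls for Tet2, Dnmt3a and Meis3 were lost, with adjusted p up to 0.112, 0.106 and 0.161.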

How the data were processed

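5hmC was captured by hMe-Seal, per the labels' protocols: fragments of about 300 bp were glucosylated with an azide sugar by T4 beta-glucosyltransferase, coupled to biotin, captured on streptavidin and sequenced. The submitters' processing notes name Bowtie2 and mm9. The sources used here give neither the aligner's release nor the tool that counted reads. The authors deposited 1 table per library with the FPKM of each gene body and of a 4000 bp promoter window, per the file headers. No unenriched DNA was used here, so FPKM values are relative and also move with CpG content. Starts count from 0 in the tables and are printed from 1. Both FPKM columns were used and 0 columns of per-sample values were left out. RefSeq spans exceed the body by a median of 2028 bp over 13422 matched transcripts, so the window appears to reach past the start into the gene.

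The 3 genes and all gene lists were chosen with earlier results of these data known. Whole reads were recovered from the FPKM steps (72 of 72 values of the 3 genes within 0.01 reads), with 1 step size in paired-end and 2, at a ratio near 1.03, in single-end libraries. Genes without coordinates (23) or with a body of length 0 or less (9) were dropped, leaving 13549. Intervals are exact at 95% and cover counting error only, since reads carry no molecular identifiers. limma 3.58.1 in R 4.3.3 was fitted to log2(FPKM + pseudocount) over 12 libraries and 7 groups, with 5 residual degrees of freedom, trended moderation and Benjamini-Hochberg adjustment at 0.05. The pseudocount was 0.0746 and the minimum mean 0.0809 for bodies (13484 genes), and 0.0723 and 0.0739 for windows (13504). All 3 genes passed both filters, the Hoxb9 body only with its ESC values counted in the mean. E14 libraries were assumed to vary like the others. The fit was tested on simulated data. Because the values are FPKM, no count test was run.

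Named genes were the 3 genes, their measured paralogs and cluster neighbours, the 3 genes outside the Hox clusters and 1 Hox gene most correlated with each over 12 libraries, and at most 4 genes past the threshold per list by adjusted p. Tet2, Dnmt3a and Meis3 between W8 liver and E14 liver fall under the last rule. Hoxa11 values outside the ESC comparisons were named as those of the gene most like Hoxb9, and Hoxb1 and Hoxc9 in W8 heart replicate 2 after their values were seen. Alternatives changed the pseudocount, filter, scaling, libraries, replicate block and groups fitted. The values of 1 cofactor gene are not reported here.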

Additional observations from a re-analysis of the deposited data

How the results depend on the processing

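Direction and side of the threshold held for each of the 3 genes in the tested comparisons without the filter on low values and with a replicate block. The block kept the 1 call between W8 liver and E14 liver (Hoxb9, -2.22, limma adjusted p = 0.0443) and the 0 calls elsewhere. It moved the count of all gene bodies between P1 heart and P1 liver from 307 to 5. Same-numbered libraries did not visibly deviate together (r from -0.011 to 0.042 over 10 pairs of groups). Counting error in the shallow libraries can hide a shared deviation, so this does not settle whether the numbers pair them. Other changes follow, and the cause was not tested except where given.

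With the pseudocount at the median divided by 2, 1 gene passed between P1 heart and P1 liver (Hoxa3, -0.83, adjusted p = 0.0468), the change of the tissue difference for Hoxd3 was 0.067, and the median of the 3 genes against ESC was -1.90 in P1 heart and -1.74 in P1 liver for bodies and -1.45 in P1 heart for windows, since a larger constant compresses low values. Median centring gave 0.083 for Hoxa3 in W8 heart against E14 heart, 0.045 for the change at Hoxd3, and 0.26 and 0.37 for Hoxa3 and Hoxb9 windows in W8 liver against P1 liver. With only the groups compared, 2 genes passed between W8 and P1 liver and 3 between W8 and E14 liver, beside 3446 and 8776 of 13484 gene bodies. Leaving out the Hoxd4 windows, an alternative chosen after seeing the data, gave Hoxd3 0.51 in P1 heart against P1 liver and 0.26 in W8 against P1 liver, and a median of -3.29 in P1 liver against ESC.

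Leaving out each replicate in turn, the number of the 3 gene bodies that passed ranged from 0 to 1 in P1 heart against P1 liver, W8 heart against W8 liver and W8 heart against E14 heart, and from 0 to 2 in the other gene body comparisons. For windows it ranged from 0 to 1 in W8 heart against P1 heart. The median against ESC in P1 heart windows ran from -3.75 to -1.70. Body differences that changed sign ranged from -0.32 to 0.64 for Hoxa3 and -1.02 to 0.38 for Hoxd3 (W8 heart against W8 liver), -0.33 to 0.82 for Hoxb9 (W8 against P1 liver), -0.53 to 0.44 for Hoxa3 (W8 against E14 heart), and -0.71 to 0.68 for Hoxd3 and -0.48 to 0.68 for Hoxb9 (change of the tissue difference). Window differences that did so ranged from -0.0068 to 1.49 for Hoxa3 and -1.59 to 0.48 for Hoxd3 (P1 heart against P1 liver), -2.04 to 0.17 for Hoxa3 (W8 heart against W8 liver), -1.31 to 0.77 for Hoxd3 (W8 against P1 heart), and -0.97 to 0.53, -0.54 to 0.71 and -0.53 to 0.31 for Hoxa3, Hoxd3 and Hoxb9 (W8 against P1 liver). Where a group kept 1 library, it was assumed to vary like the others. The share of all genes past the threshold in these fits is not given, so a pass in them is not set against it.

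Counts of all bodies past the threshold moved by more than 1.5 times as well. Between P1 heart and P1 liver 307 became 612 with the larger pseudocount, 147 with median centring and 0 with only those groups. Between W8 heart and W8 liver 4151 became 0 with only those groups. For W8 against P1 liver 1327 became 773 with centring and 3446 with only those groups, and for W8 against E14 liver 2795 became 1641 and 8776. For P1 liver against ESC 2081 became 3372 with only those groups, and in the windows 22 became 877 with the larger pseudocount, 1614 with only those groups, 44 without the filter and 2 with centring. In P1 heart windows against ESC 10 became 260 with the larger pseudocount, 5 with centring and 0 with only those groups. Depth limited Hoxb9 bodies, the promoter windows and all values of W8 heart replicate 2.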
